A study of Nicotiana tabacum with 8 samples.

Results

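The leaf transcriptome of tobacco was compared between 2 independent growth experiments, Experiment 1 and Experiment 2. The members are the 4 libraries of Experiment 2, chosen by the experiment number in their names out of 8 libraries in all, and each was set against the Experiment 1 library of the same group. The groups were C-WT and S-WT, which are *Nicotiana tabacum* cv. Zhongyan 100 wild type under control conditions and with 100 mM NaCl, and C-OE2 and S-OE2, which are the line OE-2 under the same conditions. OE-2 is a single homozygous line that carries the *NtCBL5A* coding sequence behind the constitutive 35S promoter, so that line and transgene cannot be told apart. All groups were grown hydroponically in a greenhouse to about 34 days after germination, with NaCl present for the last 4 days in S-WT and S-OE2. Each library is the pooled blade tissue, without main vein, of the fifth leaf of 4 plants. The sources used here give no sowing date, sampling hour or sequencing run for either experiment, so growth, sampling, extraction and library preparation cannot be told apart as origins of a difference. Values of the 4 libraries of an experiment are listed in the order C-WT, C-OE2, then S-WT, S-OE2. With 1 library per group and experiment, p-values rest on the spread among these 4 pairs of libraries, and not on that among repeated experiments. The tests per gene also draw the variance of a gene towards the trend over all genes.

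In a leaf blade, the nuclear genes for photosystem subunits and light-harvesting proteins are among the most highly expressed, and their transcripts follow light, the time of day and leaf development. Light-harvesting proteins bind chlorophyll and pass excitation energy to the reaction centres of photosystem I (PSI) or photosystem II (PSII). Pathogenesis-related (PR) genes are the opposite case, nearly silent in unstressed leaves and strongly induced once immune signalling through salicylic acid or ethylene is switched on. Cation exchangers and channels move Na, K and Ca ions across the plasma membrane and the vacuolar membrane. All these groups respond to the environment, and they are described here for how far each differed between the experiments.

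The total count on genes was 18674594 to 29610081 in the Experiment 1 libraries and 22600749 to 31672013 in the Experiment 2 libraries. The libraries of a pair come from different plants, and no pair was a repeat of 1 library, since the chi-square per degree of freedom over genes was 62.3 in S-OE2 to 125 in C-OE2 (against counting error only). The 100 most abundant genes took 33.7%, 33.2%, 28.2% and 19.9% of the counts in the libraries of Experiment 1, and 26.5%, 25.3%, 21.8% and 17.2% in Experiment 2. Their share was lower in Experiment 2 in 4 of 4 pairs (28.8% ± 6.42 against 22.7% ± 4.17, SD, n = 4 each), and the exact two-sided sign-flip permutation test over the 4 pairs gave p = 0.125, the smallest it can give. The TMM factors, which adjust the library size for such differences in composition, were 0.755 to 1.16 in Experiment 1 and 0.966 to 1.37 in Experiment 2. Levels are given as CPM, which are counts relative to the TMM-adjusted library size. The 12 photosynthesis genes took 1.40% to 3.36% of the counts in Experiment 1 and 1.14% to 2.70% in Experiment 2. They were thus abundant in all 8 libraries. This cannot tell leaf blade from other green tissue, since markers of other leaf cell types could not be applied. The sources used here do not pair *NtCBL5A* with an identifier of the count table, so the transgene could not be checked by name. In both experiments, 1 gene had 0 counts in the WT libraries and at least 1000 in each OE2 library.

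Experiment 2 differed from Experiment 1 in 6140 of 44564 genes tested (13.8%) by edgeR's quasi-likelihood test of the experiment term with Benjamini-Hochberg adjustment. Of these, 2835 genes were higher (6.36%) and 3305 were lower (7.42%) in Experiment 2. The typical change was about 2-fold, with a median of 2.04-fold among the higher genes and 2.20-fold among the lower genes. A log2 fold change of at least 1 was reached by 1477 higher and 1926 lower genes, and of at least 3 by 75 and 209 genes. Few genes were switched fully on or off, since 13 had at most 1 count in total in Experiment 1 and at least 3 counts in each library of Experiment 2, and 11 showed the reverse. Which direction prevailed changed with the normalization. When libraries were scaled to their total counts, the median of all genes moved from 0.01 to 0.34 on the log2 scale, and 9398 genes were higher and 1879 lower. The direction of each gene is therefore given relative to the median of all genes. Leaving out a C-OE2 library lowered the counts most, to 1031 higher and 1419 lower genes without C-OE2 of Experiment 2 and to 1117 and 1456 without C-OE2 of Experiment 1. Without a C-WT library, 1424 to 1480 genes were higher and 2025 to 2061 lower, and without an S-WT library, 1586 to 1671 and 2140 to 2151. By construction, leaving out a library also removes its partner from this comparison and leaves fewer residual degrees of freedom. Either library of a pair thus gives nearly the same fit, and the cases are not separate checks.

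The change went the same way in all 4 groups for most of the called genes. The log2 ratio within each group was above 0 in 4 of 4 groups for 2820 of the 2835 higher genes and below 0 in 4 of 4 groups for 3199 of the 3305 lower genes. Over all genes tested, 37.2% had 1 sign in all 4 groups, 19.5% above 0 and 17.8% below 0. The calls were made on the same ratios, so these counts are a description. The CPM ranges of the experiments did not overlap for 1998 of the higher and 1699 of the lower genes, against 8.12% and 6.16% of all genes tested. The ratios were smaller in S-OE2 than in the other groups, and the part of library depth in this was not tested. A log2 ratio beyond 1 was seen for 9849 and 9605 genes in the control groups C-WT and C-OE2, and for 9936 and 6397 genes in S-WT and S-OE2. Among the genes called lower, the median log2 ratio was -1.06, -1.17, -1.13 and -0.89 in the same order.

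The experiment was a source of variance of the same order as salt and genotype. When the variance of log2 CPM among the 8 libraries was divided over the 7 contrasts of the layout, 24.5% lay between the experiments, 27.5% between salt and control and 20.2% between the genotypes. Salt by genotype held 10.9%. The contrasts that involve the experiment with salt, with genotype or with both held 6.51%, 5.14% and 5.27%. The experiment was the largest of the 7 contrasts for 14925 genes (33.5%), salt for 12262 genes (27.5%) and genotype for 6491 genes (14.6%). The biological coefficient of variation was 39% when only the group was modelled and 24.2% with the experiment as a further term.

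**Figure D1:**
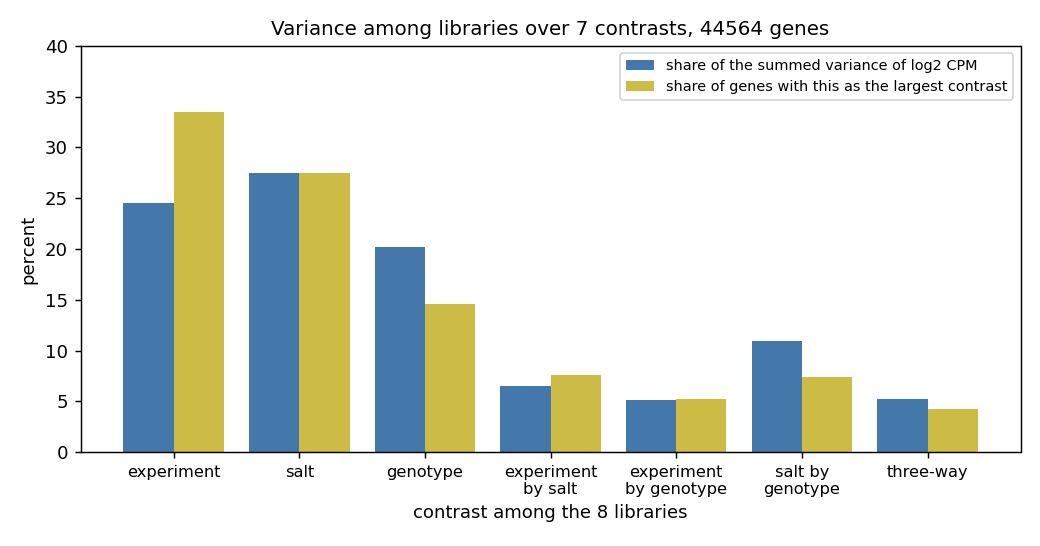
Share of the variance of log2 CPM among the 8 libraries (blue bars, percent) and share of the 44564 genes tested for which a contrast was the largest (yellow bars, percent), for each of 7 contrasts. The experiment held 24.5% of the variance, next to 27.5% for salt and 20.2% for genotype, and was the largest contrast for 33.5% of genes.

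Photosynthesis genes were lower in Experiment 2. Of the 12 photosynthesis genes, 9 fell, none rose and 3 did not pass the test, beside 7.42% of all genes tested that fell. The median log2 difference of the 12 was -0.73, against 0.01 for all genes tested, and 10 of the 12 were below 0 in 4 of 4 groups. With total-count scaling the median of the 12 was -0.39, against 0.34 for all genes. Without a single library the 9 became 5 to 8, with 5 without C-OE2 of Experiment 2, and with total counts 6. All 12 genes were in the highest decile of level per length (737 to 8703 CPM per kb), where 17.7% of genes were lower and the median was -0.18. The part of level in their fall was not tested. The study had picked these genes from these same libraries, among DEGs that it required in both experiments. It looked for DEGs affected by overexpression only under salt, and for DEGs affected by salt only in OE-2. The medians within the 4 groups were -0.67, -0.76, -0.91 and -0.60.

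The largest fall was that of *Lhcb3* (Nitab4.5_0012832g0010, plus strand of scaffold Nitab4.5_0012832, 10325 to 11462, tobacco assembly Nitab v4.5), which encodes a subunit of the major light-harvesting trimers of PSII. Its level was 4158, 3819, 3010 and 625 CPM in the libraries of Experiment 1. In Experiment 2 it was 944, 581, 296 and 51.4 CPM. Each Experiment 2 library was below its partner by more than 4-fold, while S-OE2 of Experiment 1 lay among the Experiment 2 values. The log2 change was -2.95 ± 0.25 (standard error), or 7.74-fold lower, with adjusted p = 2.82e-04 by edgeR's quasi-likelihood test. The ratios were -2.14 and -2.72 in the control groups and -3.34 and -3.60 in the salt groups. The difference between salt-treated and control leaves was -1.05 (standard error 0.29), with an unadjusted p of 0.00695 and an adjusted p of 0.450 by the same test over all genes, so it did not pass.

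*Lhca3* (Nitab4.5_0000923g0200, plus strand of scaffold Nitab4.5_0000923, 615315 to 617332) encodes an antenna protein of PSI. It had 1278, 1340, 815 and 407 CPM in Experiment 1 and 392, 327, 212 and 99.3 CPM in Experiment 2. All 4 values of Experiment 2 lay below all 4 of Experiment 1. This held for no other gene of the list, and for 6.16% of all genes tested. It was 3.81-fold lower, with a log2 change of -1.93 ± 0.14 (standard error) and adjusted p = 1.38e-04 by edgeR, and the 4 group ratios were close together, from -1.71 to -2.03. *Lhcb4*, for a minor PSII antenna protein that links the trimers to the reaction centre, was at a higher level per length, with a mean of 4408 CPM per kb over the 8 libraries against 1894 for *Lhcb3* and 737 for *Lhca3*. It had 7406, 7750, 5105 and 1978 CPM in Experiment 1 and 4504, 3711, 2556 and 1092 CPM in Experiment 2, a log2 change of -0.91 ± 0.14 (standard error) with adjusted p = 0.00477 by edgeR. Each pair of *Lhcb4* fell, and the call was lost without C-OE2 of Experiment 2. Antenna transcripts thus differed in how far they fell, by 7.74-fold, 3.81-fold and 1.88-fold for *Lhcb3*, *Lhca3* and *Lhcb4*. The difference between these genes was not tested.

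**Figure D2:**
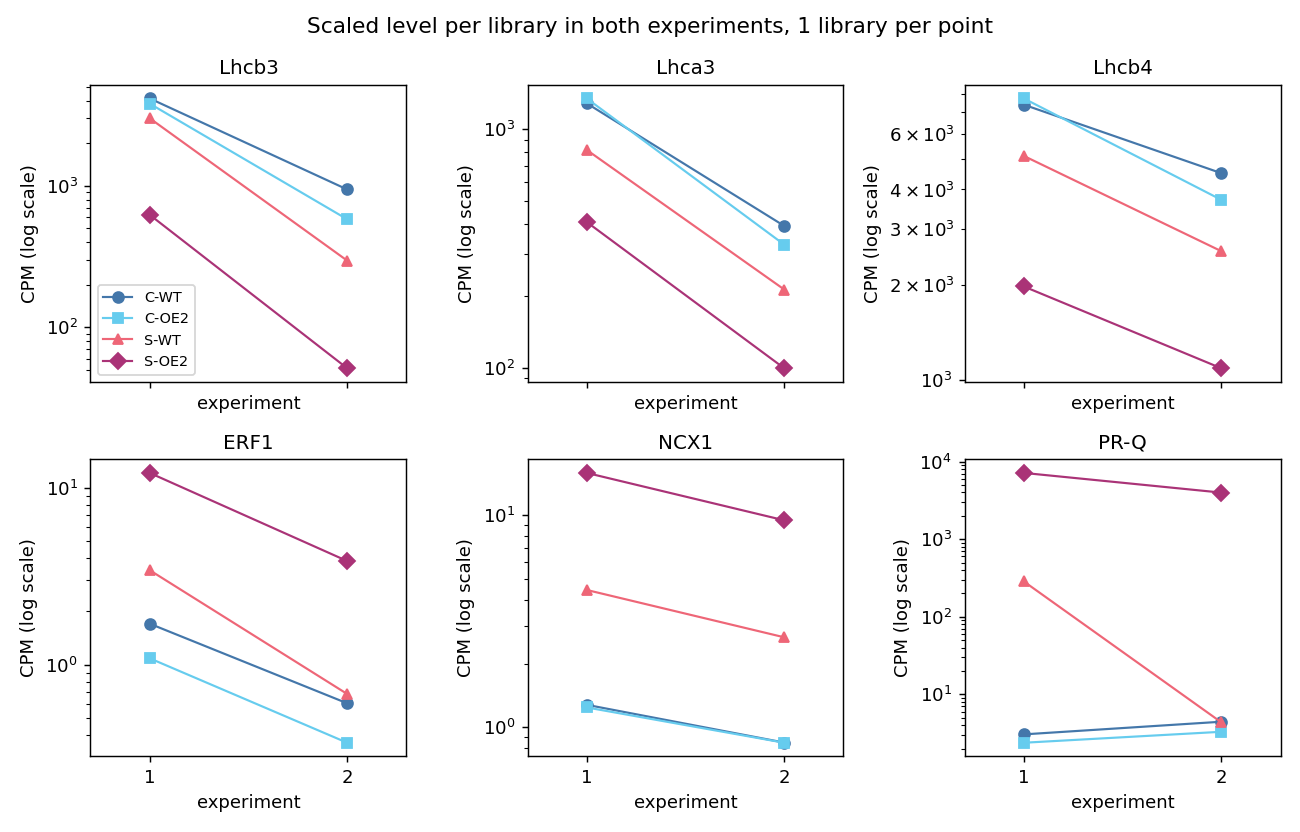
CPM on a log axis against the experiment for 6 genes, with 1 point per library and a line joining the libraries of a group. *Lhcb3*, *Lhca3*, *Lhcb4*, *ERF1* and *NCX1* fell in 4 of 4 groups, whereas *PR-Q* fell from 286 to 4.37 CPM in S-WT and was between 2.38 and 4.44 CPM in the control libraries.

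The other subunits of the photosystems that were measured had log2 changes between -0.51 and -0.99, a range that includes *Lhcb4*. In PSI, *PsaH*, a small subunit at the docking site of light-harvesting proteins, had 1112, 1053, 693 and 234 CPM in Experiment 1 and 552, 489, 340 and 132 CPM in Experiment 2, which is 1.99-fold lower (log2 -0.99, standard error 0.13, adjusted p = 0.00244, edgeR). *PsaD* and *PsaE*, which form the ferredoxin docking side, were 1.54-fold and 1.42-fold lower (adjusted p = 0.0190 and 0.0488, edgeR). In PSII, *OEE1*, which stabilizes the manganese cluster of water oxidation, went from 5057 to 2794 CPM in C-WT, from 4085 to 1863 in S-WT and from 1398 to 794 in S-OE2. It was 1.91-fold lower, with a log2 change of -0.93 ± 0.14 (standard error) and adjusted p = 0.00401 by edgeR. *PsbX*, a small membrane subunit, was 1.77-fold lower (adjusted p = 0.00580, edgeR) and *PsbQ*, an extrinsic protein of the oxygen-evolving complex, was 1.55-fold lower (adjusted p = 0.0258, edgeR). All 6 were below 0 in 4 of 4 groups, with the smallest ratio, -0.24, in C-WT for *PsaE*. The calls of *PsaD*, *PsaE* and *PsbQ* were lost with total-count scaling (adjusted p = 0.133, 0.410 and 0.160, edgeR). Without a single library, the call of *PsaE* was lost in 8 of 8 cases, that of *PsaD* in 6 and that of *PsbQ* in 5. Either library of a pair removes the same pair, so these cases are not separate checks.

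The 3 photosynthesis genes that did not pass act downstream of the photosystems. *Fd*, the ferredoxin that accepts electrons from PSI, had a log2 difference of -0.41 (standard error 0.14, adjusted p = 0.0878, edgeR) and was below 0 in 4 of 4 groups. By DESeq2 its adjusted p was 0.0107. The *F-ATPase delta subunit*, part of the chloroplast ATP synthase, had -0.29 (standard error 0.15) and *GAPA*, a subunit of the Calvin cycle glyceraldehyde-3-phosphate dehydrogenase, had -0.24 (standard error 0.15). Both were slightly above 0 in S-OE2, with ratios of 0.02 and 0.07. Their sign depended on the scaling, with 0.05 and 0.10 under total counts, where the median of all genes was 0.34.

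The responses of the photosynthesis genes to salt started from different base levels in the experiments. Since the study kept only genes that changed in both, the shared direction in OE-2 was fixed by that choice and is a description. The study also set its DEGs against those of C-WT/S-WT and C-WT/C-OE2. The ratios in these comparisons were therefore not free of the choice and are a description too. Between C-OE2 and S-OE2, 12 of 12 genes were lower under salt in each experiment, with a median log2 ratio of -1.84 in Experiment 1 and -1.71 in Experiment 2. Between C-WT and S-WT, 12 of 12 were lower in each, with medians of -0.55 and -0.70. The comparison of the genotypes under control conditions was less alike. There, 7 genes were lower and 5 higher in C-OE2 of Experiment 1 (median -0.06), and 12 were lower in C-OE2 of Experiment 2 (median -0.20). These are ratios of 1 library to 1 library and were not tested per experiment.

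**Figure D3:**
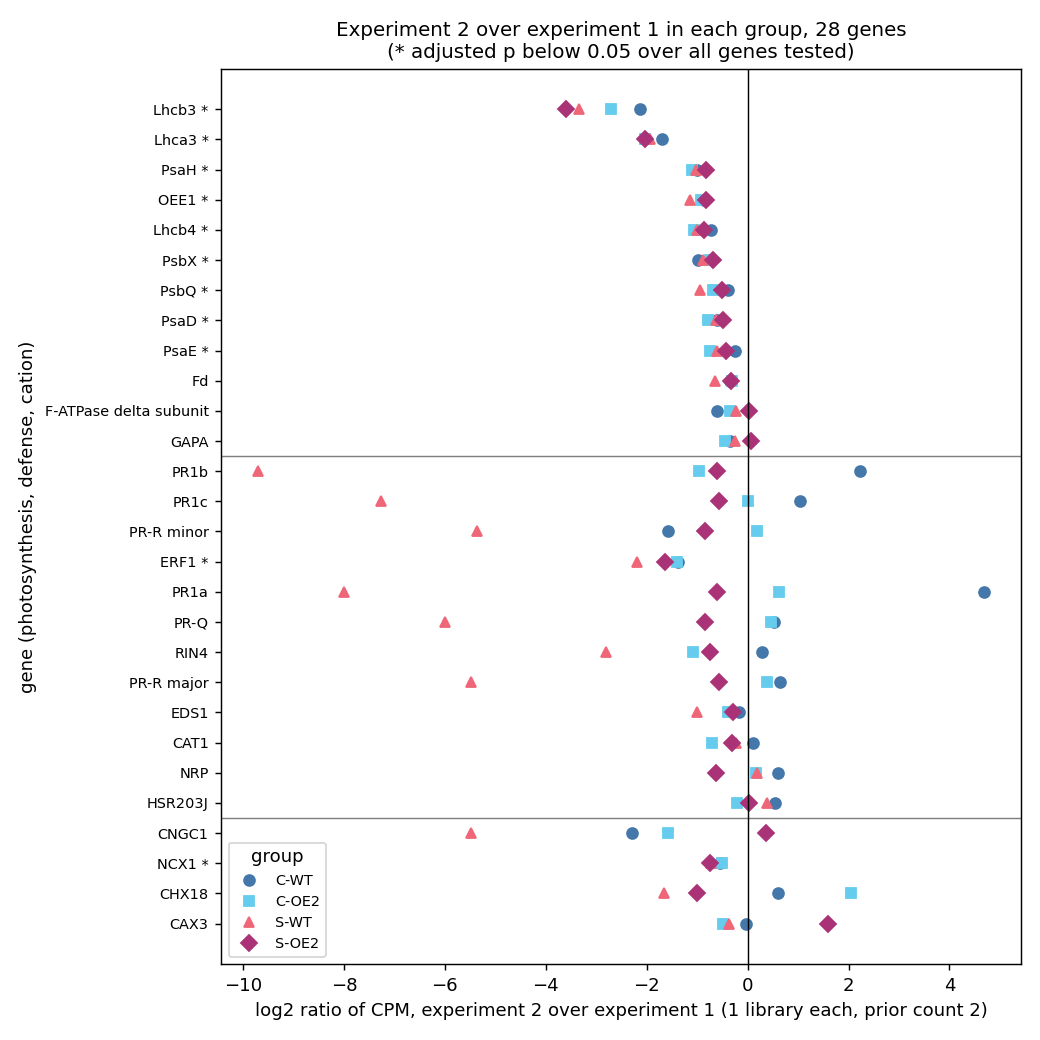
Log2 ratio of Experiment 2 over Experiment 1 in each of 4 groups for 12 photosynthesis, 12 defense and 4 cation genes, each point 1 library against 1 library with a prior count of 2, so that a ratio against a library at 0 counts depends on that prior count. Asterisks mark the 11 genes with an adjusted p below 0.05. The photosynthesis genes lie between -3.60 and 0.07, and 6 PR genes have S-WT ratios below -5.

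Among the 12 defense genes, 1 fell (8.33%), none rose and 11 did not pass the test, which is close to the share over all genes tested (7.42% lower, 6.36% higher). *ERF1* (Nitab4.5_0010541g0010, plus strand of scaffold Nitab4.5_0010541, 60997 to 61758), an ethylene response transcription factor that activates defense genes, had counts of 24, 21, 83 and 414 in Experiment 1 and 15, 12, 18 and 126 in Experiment 2. In CPM these were 1.70, 1.09, 3.42 and 12.1 against 0.606, 0.363, 0.684 and 3.85. Each library of Experiment 2 was lower than its partner, and S-OE2 was the highest library in both experiments. The log2 change was -1.77 ± 0.25 (standard error), or 3.41-fold lower (adjusted p = 0.00287, edgeR), and the call held when any 1 of the 8 libraries was left out. The 4 log2 ratios were -1.38, -1.41, -2.20 and -1.63. The other immune signalling genes did not pass. *EDS1*, a signal transducer of the salicylic acid pathway, had a log2 difference of -0.47 (standard error 0.18, adjusted p = 0.113, edgeR), with 4 of 4 ratios below 0. *RIN4*, a membrane protein guarded by immune receptors in *Arabidopsis*, had -1.13 (standard error 0.42, adjusted p = 0.113, edgeR), with 3 of 4 ratios below 0.

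The PR genes separated the S-WT libraries of the experiments. In S-WT of Experiment 1, *PR1a* had 4470 counts (184 CPM), *PR1b* 1556 counts (64.0 CPM) and *PR1c* 285 counts (11.7 CPM), whereas in S-WT of Experiment 2 they had 17, 0 and 0 counts. *PR1* proteins are secreted markers of the salicylic acid response. *PR1b* was at least 562-fold lower and *PR1c* at least 103-fold lower in S-WT of Experiment 2, against a floor of 3 counts in that library. *PR-Q*, an acidic chitinase, had 6944 counts (286 CPM) in S-WT of Experiment 1 and 115 counts (4.37 CPM) in Experiment 2. The *PR-R* forms, which are thaumatin-like proteins, went from 1899 to 44 counts (*PR-R* major) and from 679 to 16 counts (*PR-R* minor). In the control libraries the 6 PR genes had 0 to 46 counts in Experiment 1 and 0 to 110 in Experiment 2. In CPM, S-WT of Experiment 2 did not exceed the highest control library for any of the 6 genes, and S-WT of Experiment 1 was above every control library.

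In S-OE2, the same 6 genes were high in both experiments, which the study's choice of genes upregulated there in both had fixed. That choice also set them against the DEGs between C-WT and S-WT, so their S-WT levels were not free of it. *PR1a* had 7664 CPM in Experiment 1 and 5054 CPM in Experiment 2, and *PR-Q* had 7146 and 3985 CPM. The 6 log2 ratios in S-OE2 were between -0.56 and -0.85. None of the 6 PR genes was called for the experiment, with log2 differences down to -2.55 (*PR1b*) and standard errors of 0.78 to 1.53. Without S-WT of Experiment 2, the difference of *PR1a* turned from -1.24 to 0.46 and that of *PR-R* major was 0.08, against 2.00-fold lower with all libraries. Over the whole list of 12 genes, the median log2 ratios were 0.54, -0.11, -4.08 and -0.60, so that S-WT stood apart. With ratios against a library at 0 set to their bounds, the medians in C-WT and S-WT were 0.47 and -4.08. Between C-WT and S-WT, 11 of the 12 defense genes were higher under salt in Experiment 1 (median log2 ratio 3.10) and 5 of 12 in Experiment 2 (median -0.39). *NRP* and *HSR203J*, markers of hypersensitive cell death, and *CAT1*, a catalase, showed no such gap. Their S-WT ratios were 0.19, 0.38 and -0.22, and their log2 differences were 0.08, 0.17 and -0.28, none called. That of *CAT1* was 0.06 under total counts. *NRP* had 50.2 and 57.4 CPM in S-WT of Experiments 1 and 2.

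The tobacco genome holds near-identical gene copies from both of its parental species, and the handling of reads that fit several copies is not given in the sources used here. The split of counts within the *PR1*, *PR-R* and *Lhcb* families is uncertain for this reason. None of the 28 genes overlaps another gene of the table.

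Among the 4 cation genes, 1 fell, none rose and 3 did not pass, beside 7.42% lower and 6.36% higher over all genes tested, and 4 genes are too few to set against these shares. *NCX1* (Nitab4.5_0005404g0030, minus strand of scaffold Nitab4.5_0005404, 20441 to 21829), named as an exchanger of Na and Ca, had 1.28, 1.24, 4.44 and 15.8 CPM in Experiment 1 and 0.848, 0.847, 2.66 and 9.47 CPM in Experiment 2. It was lower in 4 of 4 pairs, and the counts in the control libraries were only 18 to 28. The log2 change was -0.67 ± 0.19 (standard error, adjusted p = 0.0469 by edgeR), with ratios from -0.51 to -0.74. This call was lost when any 1 of the 8 libraries was left out (adjusted p = 0.0953 to 0.191), with total counts (0.222) and with no filter (0.0571). *CNGC1*, for a cyclic nucleotide-gated channel that conducts cations, had 81 counts in S-WT of Experiment 1 and 0 in Experiment 2, at least 29.3-fold lower, and 734 and 899 counts in S-OE2. *CAX3*, a vacuolar exchanger of cations for protons, differed mainly in S-OE2, where it had 77 counts in Experiment 1 and 227 in Experiment 2, a log2 ratio of 1.59. In the other groups its ratios were -0.02 to -0.48. *CHX18* held at most 8 counts outside S-OE2, too few to compare.

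Large ratios in S-WT alone were also seen outside the listed genes. By a rule chosen after the values were seen, a gene belonged to 1 group if its log2 ratio was beyond 3 there and within 1 in the other 3 groups. In S-WT, 75 genes were lower and 11 higher in Experiment 2 by this rule. The numbers were 10 and 33 in C-WT, 19 and 13 in C-OE2, and 4 and 3 in S-OE2. *PR-Q* and *PR-R* major were 2 of the 75. These sets are a small part of the 44564 genes tested and rest on ratios of 1 library to 1 library. A link of the other genes to the PR genes was not tested.

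The files pair no names or descriptions with the gene identifiers, and 0 of them matched the RefSeq table, so the genes with the largest changes are given by identifier. Nitab4.5_0004269g0080 (minus strand of scaffold Nitab4.5_0004269, 198208 to 199011) had 43931, 41973, 9633 and 1190 counts in Experiment 1 and 473, 353, 79 and 31 in Experiment 2. In C-WT these counts were 3119 CPM in Experiment 1 and 19.1 CPM in Experiment 2. The fall was 123-fold (log2 -6.94, standard error 0.41, adjusted p = 5.10e-05, edgeR), and its ratio was -7.35, -7.66, -7.01 and -5.09 over the 4 groups. In both experiments it was lower under salt, with S-OE2 the lowest library. Nitab4.5_0007840g0020 (minus strand of scaffold Nitab4.5_0007840, 55955 to 56527) had 157, 152, 83 and 34 counts in Experiment 1 and 0, 4, 0 and 0 in Experiment 2. It was at least 92.1-fold lower in C-WT, 30.0-fold in S-WT and 10.9-fold in S-OE2, against a floor of 3 counts per library.

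In the other direction, Nitab4.5_0003208g0050 (plus strand of scaffold Nitab4.5_0003208, 225689 to 226096) had 0, 0, 18 and 11 counts in Experiment 1 and 745, 623, 829 and 490 in Experiment 2. It was at least 141-fold higher in C-WT and at least 121-fold higher in C-OE2. Nitab4.5_0002257g0010 (plus strand of scaffold Nitab4.5_0002257, 172705 to 174791) had 1, 7, 15 and 38 counts in Experiment 1 and 467, 909, 560 and 557 in Experiment 2, 36.4-fold higher (log2 5.19, standard error 0.42, adjusted p = 2.44e-04, edgeR). The experiment held 92.0% of the variance of this gene among the 8 libraries, 90.4% for Nitab4.5_0003208g0050 and 63.7% for *Lhca3*. For each of the 4 genes chosen by largest change, the CPM of the experiments did not overlap. Over all genes tested, this held for 6.16% lower and 8.12% higher. The choice required a call and 1 sign in all 4 groups, so the gap and the variance shares of these genes are a description.

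Whether control and salt-treated leaves, or WT and OE-2, differed alike between the experiments was asked with added terms. In control leaves 3566 genes were called (8%), 1656 higher (3.72%) and 1910 lower (4.29%) in Experiment 2. In salt-treated leaves 2001 genes were called (4.49%), 772 higher (1.73%) and 1229 lower (2.76%). The order of these counts is not read as a result. By construction, leaving out a library also removes its partner, so its treatment rests on fewer pairs than the other. The order in such fits therefore cannot show which treatment differed more. Without either C-OE2 library, 858 genes were called in control leaves and 2057 to 2063 in salt-treated leaves, and without either C-WT library, 1091 to 1105 and 1889 to 1951. Without either S-WT library they were 5347 to 5359 and 870 to 892, and without either S-OE2 library 5109 to 5534 and 2388 to 2775. The genes shared by both lists were 465 higher (28.1% of the control and 60.2% of the salt list) and 753 lower (39.4% and 61.3%), while 1 gene was called in opposite directions. The difference itself was called for 0 genes by edgeR's quasi-likelihood test, where the smallest adjusted p was 0.0851 and 3702 genes had an unadjusted p below 0.05. DESeq2 called 301 genes and edgeR without a filter 163. Leaving out a library gave 0 to 229 calls, the most without S-OE2 of Experiment 1.

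In WT, 1791 genes were called (4.02%), 723 higher (1.62%) and 1068 lower (2.4%), and in OE-2, 808 genes (1.81%), 250 higher (0.561%) and 558 lower (1.25%). This order is not read as a result. It turned without either C-WT or either S-WT library, and held without either C-OE2 or either S-OE2 library. By construction, leaving out a library also removes its partner, so its genotype rests on fewer pairs than the other. The order in such fits therefore cannot show which genotype differed more. DESeq2 called 3000 genes in WT and 2005 in OE-2. The lists in WT and OE-2 shared 178 higher genes (24.6% of the WT and 71.2% of the OE-2 list) and 431 lower genes (40.4% and 77.2%), and 0 genes were called in opposite directions. The difference between the genotypes was called for 0 genes by edgeR (smallest adjusted p 0.890, 1542 genes with an unadjusted p below 0.05). DESeq2 called 8 and edgeR without a filter 39. Leaving out a library gave 0 to 88 calls, the most without C-WT of Experiment 2. These fits had 2 residual degrees of freedom, so a difference that was not called is not shown to be absent.

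The share of genes called for the experiment differed with abundance and length. Abundant genes were called more often in both directions, and the part of detection at higher counts in this was not tested. Genes were divided into deciles by level and by length. In the highest decile of genes by CPM per kb, 17.7% were lower and 7.90% higher in Experiment 2, and in the lowest decile 1.21% and 3.05%. The median log2 difference went from 0.19 in the lowest decile to -0.18 in the highest. By gene length, the shortest decile (120 to 501 bases) had 7.85% lower and 3.43% higher genes, while the longest decile (2468 to 24320 bases) had 3.75% lower and 12.1% higher genes. The median went from -0.07 to 0.22. With total counts the medians were all above 0, and still went from 0.25 in the shortest to 0.56 in the longest decile. The 12 photosynthesis genes were 369 to 1399 bases long. The part of length in their fall was likewise not tested.

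**Figure D4:**
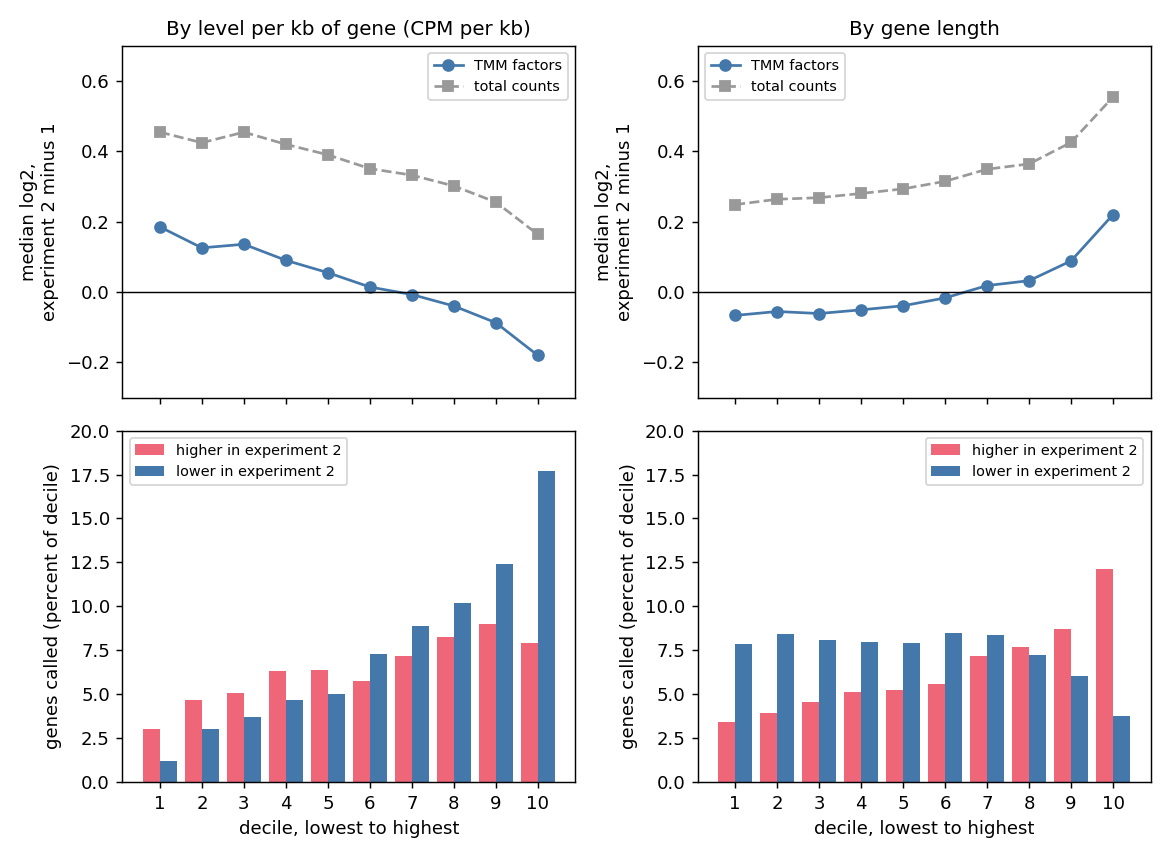
Genes tested in 10 equal parts by mean CPM per kb (left) and by gene length (right). The upper panels give the median log2 difference, Experiment 2 minus Experiment 1, with TMM factors (circles) or total counts (squares), and the lower panels the percent of genes called higher (red) or lower (blue). With TMM factors the median falls from 0.19 to -0.18 with the level and goes from -0.07 to 0.22 with length.

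Genes of the authors' own transcript assembly were called less often than annotated genes, with 8.71% of 6431 against 14.6% of 38133. The part of level in this was not tested. Neighbours on a scaffold were called more often in the same than in the opposite direction. Of 1602 neighbours of higher genes within 10000 bases, 10.1% were higher and 5.99% lower, and of 1709 neighbours of lower genes, 12.5% were lower and 5.62% higher. Over all genes tested, 6.36% were higher and 7.42% lower.

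The genes that differed between the experiments were also part of the lists of differentially expressed genes (DEGs) for salt and overexpression. Of 3288 DEGs between S-WT and S-OE2 (7.38%), 872 were also called for the experiment, which is 26.5% of the former and 14.2% of the latter. Of 5309 DEGs between C-OE2 and S-OE2 (11.9%), 1385 were shared (26.1% and 22.6%). Over all genes tested, 13.8% were called for the experiment. Such calls were more frequent among abundant genes. In the highest decile by mean CPM, 9.67% were higher and 17.8% lower, against 1.28% each way in the lowest. The part of level in the shared calls was not tested. The small lists shared 5 of 16 (C-WT/C-OE2, 0.0359%) and 26 of 39 genes (C-WT/S-WT, 0.0875%). These lists were unstable, with 1 to 114 and 1 to 223 genes when a library was left out and 256 and 594 by DESeq2, so their shares are not read further. The first list was smallest without C-OE2 of Experiment 1 and largest without C-OE2 of Experiment 2. The second was smallest without C-OE2 and largest without S-WT, both of Experiment 2. All these comparisons use the same libraries and the same fit.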

How the data were processed

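RNA of tobacco leaf blades was sequenced in 8 libraries. The authors aligned reads with HISAT2 2.0.5, assembled transcripts with StringTie 1.3.3b, counted reads per gene with featureCounts 1.5.0-p3, and deposited raw counts for 81378 genes, of which 11878 come from their assembly. The authors also deposited FPKM values, which were not used here.

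Counts were analysed in R 4.3.3 with edgeR 4.0.16. Genes passing filterByExpr (44564) were scaled by TMM and tested with the quasi-likelihood test, in a model of group plus experiment with 3 residual degrees of freedom. A standard error is the absolute log2 fold change over the square root of F. Called genes had an adjusted p below 0.05. Group ratios used a prior count of 2, and bounds a floor of 3 counts per library. The scripts were tested on simulated data with 200 changed genes.

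Experiments follow the number in the library names. The genes, lists and comparisons were chosen with earlier results of these data known. The genes named are the 28 with identifiers in the study and the 2 largest called changes per direction, with 1 sign in 4 groups and at least 1 CPM in the higher experiment. Lists planned from gene descriptions, and markers of other leaf cell types, could not be applied. Alternatives were DESeq2 1.42.0, other scaling and filters, a log2 minimum of 1, other model terms, a prior count of 0.5, and leaving out each library.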

Additional observations from a re-analysis of the deposited data

Results flagged for a closer look

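For 4 genes, both control groups were higher and both salt groups lower in Experiment 2 than in Experiment 1. The experiment effect in salt-treated leaves minus that in control leaves was -6.63 on the log2 scale for *PR1a*, -3.81 for *PR-Q*, -3.30 for *PR-R* major and -6.54 for *CHX18*. The adjusted p over all genes was 0.634, 0.597, 0.614 and 0.570 by edgeR's quasi-likelihood test, so none passed. The control counts behind these values were low, with 0 and 4 counts of *PR1a* in Experiment 1 and 47 and 12 in Experiment 2, and 0 and 0 against 1 and 8 for *CHX18*. The fitted values of *PR1a* and *CHX18* depend on such libraries and are no bounds. Within the salt groups, the fall of the 3 PR genes lay mainly in the S-WT pair. Its ratios were -7.99, -6.01 and -5.48, against -0.60, -0.84 and -0.56 in S-OE2. For *PR1a* the control pairs also held part of the difference, with ratios of 4.69 in C-WT and 0.63 in C-OE2. Its fitted effect was 2.93 in control and -3.71 in salt-treated leaves.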

How the results depend on the processing

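The experiment effect kept both counts within 1.5 times with DESeq2, RLE factors, no filter and a mean of at least 10 counts. With a log2 minimum of 1 it gave 1477 higher and 1926 lower genes, with 2 photosynthesis and 0 cation genes lower. With DESeq2, 3284 genes were called in salt-treated leaves, 3000 in WT and 2005 in OE-2, 301 for experiment by salt and 8 for experiment by genotype, 594 for C-WT/S-WT and 256 between C-WT and C-OE2, and *PR1a* turned to 0.042 on the log2 scale. With total counts, 9398 genes were higher and 1879 lower, 6614 were called in control leaves, 3962 in salt-treated leaves, 3215 in WT, 1222 in OE-2 and 2 for experiment by salt, with 39 between C-WT and C-OE2 and 9775 for C-OE2/S-OE2. There, 0 cation genes were lower, and *CAT1*, the *F-ATPase delta subunit* and *GAPA* turned to 0.061, 0.051 and 0.10. With no filter, 3735 genes were called in salt-treated leaves, 3887 in WT, 2446 in OE-2, 163 for experiment by salt, 39 for experiment by genotype, 323 for C-WT/S-WT and 236 between C-WT and C-OE2, and 2 defense and 0 cation genes were lower. With a mean of at least 10 counts, C-WT/C-OE2 gave 6 and C-WT/S-WT 25 genes. Without the group term, 977 genes were higher and 873 lower, with 0 defense, 0 photosynthesis and 0 cation genes lower, and *NRP*, *CAX3* and *CNGC1* turned to -0.37, -0.19 and 0.058. With both added terms in 1 fit, which left 1 residual degree of freedom, experiment by salt gave 206 and experiment by genotype 29 genes. The cause of these shifts was not tested. The group ratios and the share of variance between the experiments (22.6% to 25.4%) changed little with the prior count, scaling or filter.

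The replicate number is the experiment. With no replicate block, C-WT/C-OE2 gave 3 genes, S-WT/S-OE2 5, C-WT/S-WT 0 and C-OE2/S-OE2 263, against 16, 3288, 39 and 5309 with it.

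Leaving out 1 library at a time, which leaves a group with a lone sample assumed to vary like the others, gave 1031 to 2437 higher and 1419 to 3065 lower genes. The called genes were 858 to 5534 in control leaves, 870 to 2775 in salt-treated leaves, 713 to 2858 in WT, 225 to 1927 in OE-2, 0 to 229 for experiment by salt and 0 to 88 for experiment by genotype. The counts were lowest without C-OE2 of Experiment 1 in control leaves and OE-2, and without S-WT of Experiment 2 in salt-treated leaves and WT. By construction, each of these fits had fewer pairs for the leaves named. Called genes were 1 to 114 for C-WT/C-OE2, 1101 to 3193 for S-WT/S-OE2, 1 to 223 for C-WT/S-WT and 1274 to 5587 for C-OE2/S-OE2. Lower members were 1 to 2 defense, 5 to 8 photosynthesis and 0 to 1 cation genes. The log2 difference of *NRP* was -0.091 to 0.33 and below 0 without either C-WT library, and that of *CAX3* was -0.29 to 0.35 and below 0 without either S-OE2 library. *CHX18* was -1.25 to 0.50, above 0 without an S-WT or S-OE2 library. *PR1a* was -2.64 to 0.46 and *PR-R* major -1.63 to 0.077, both above 0 without either S-WT library. *PR1c* and *CNGC1* passed the threshold only without an S-OE2 library. Groups in which a gene had under about 10 counts per library, such as those outside S-OE2 for *CHX18*, are too thinly counted to compare.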
